A study of Mus musculus with 6 samples.

Results

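The 36 genes described here encode sensors, transcription factors and targets of the unfolded protein response and of the integrated stress response. They were matched by symbol to the Ensembl identifiers of a table of 26128 genes, and all 36 were found and had enough counts to be tested. They fall into 3 arms, each named after a transcription factor, with 17 genes in the ATF4 arm, 10 in the ATF6 arm and 9 in the XBP1 arm. Each gene was given a single arm, although several promoters of chaperone genes are known to answer to both ATF6 and XBP1.

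When proteins fold poorly in the endoplasmic reticulum (ER), sensors in its membrane start the unfolded protein response. PERK (Eif2ak3) phosphorylates the initiation factor eIF2α, which slows translation and favours translation of ATF4, while IRE1α (Ern1) splices the mRNA of Xbp1, and ATF6 is cut to release a transcription factor. Further eIF2α kinases, GCN2 (Eif2ak4) for amino acid shortage and PKR (Eif2ak2) for double-stranded RNA, feed into ATF4 in what is called the integrated stress response. Activated lymphocytes are known to engage parts of this system as their protein synthesis increases. Phosphorylation, cleavage and splicing cannot be seen in counts per gene, which give the level of each mRNA.

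Double negative T (DNT) cells, which are T cells without CD4 or CD8, were converted from CD4+CD25- T cells of adult C57BL/6 mice (from spleen in the labels, from spleens and lymph nodes in the study's methods) by 7 days of culture with mature dendritic cells of DBA/2 mice and IL-2, and were then sorted as CD3+NK1.1-CD4-CD8-. Both groups were stimulated by anti-CD3/CD28 beads for 48 h, the control group without IL-33 and the IL-33 group with IL-33, a cytokine of the IL-1 family, at 50 ng/ml. RNA was sequenced from 3 libraries of each group to compare DNT cells with and without this cytokine. The sources do not say whether the replicates came from separate mice or cultures, so p-values measure the spread between these libraries, which may be technical. All cells are products of conversion in culture and bead stimulation, so no unstimulated or freshly isolated DNT cells stand beside them.

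The libraries held 20256342 to 22336050 counts, and values are given as CPM, counts in 1000000, after TMM scaling. A gene with no count in a library could have reached 0.134 to 0.148 CPM there, which is what 3 counts come to and allows for counting error alone. The 7 genes of the T cell receptor complex summed to 2103 to 2268 CPM in the control libraries and to 2220 to 2322 CPM with IL-33. Among the 4 markers that the sort should lack, Cd8a was nonetheless read at 545 ± 13.6 CPM in the controls and 400 ± 9.15 CPM with IL-33 (SD, n = 3), and the 4 together ran from 575 to 608 and from 436 to 453 CPM. Cd4, with only 5 to 22 counts in a library, fell from 0.934 to 0.373 CPM, and Klrb1c fell from 33.5 to 25.6 CPM. By contrast, Cd8b1 rose from 9.68 ± 1.65 to 16.3 ± 2.07 CPM (SD, n = 3). Of the other cell types that the culture could hold, 14 of 15 dendritic and myeloid markers were in the table and summed to 102 to 106 CPM and 79.7 to 85.6 CPM, with Flt3, Ccl17, Ccl22 and Lyz2 near 0. Within this list Itgax fell from 54.6 to 26.0 CPM and Cd74 fell by 0.58 on the log2 scale, while H2-Ab1 rose from 24.8 to 30.3 CPM and Fscn1 from 1.53 to 4.10 CPM. In the table, 12 of 14 mast cell and basophil markers summed to 54.6 to 59.4 and 38.8 to 47.1 CPM. Cpa3 fell by 0.62, Hpgds by 0.43 and Cma1 by 0.30 on the log2 scale, while Mcpt8 and Hdc were not called. Fcer1a, Gata2, Ms4a2 and Tpsb2 had group means of at most 0.392 CPM. For B and plasma cells, 6 of 9 markers were in the table and summed to 22.8 to 24.1 and 22.2 to 26.8 CPM, with Jchain near 0. The sum covers opposite moves: Sdc1 fell from 7.15 to 5.08 CPM (edgeR adjusted p = 0.0110), with overlapping groups. Ighm went from 10.7 to 13.0 CPM and Cd79b from 3.65 to 4.35 CPM, and Cd79a had a lower mean with IL-33, none of them called. The part of these shifts in the results below was not tested. In bulk RNA, fewer cells that express a gene and less of its RNA per cell cannot be told apart.

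Promoter sequences are shown because each arm is named after a factor that binds DNA. They come from RefSeq windows of 300 bases on GRCm38.p6, from 250 before to 50 after the start of each gene, which existed for 31 of the 36 genes (15, 7 and 9 in the ATF4, ATF6 and XBP1 arms). The ER stress response element, CCAAT and CCACG separated by 9 bases, is the binding site of ATF6 with NF-Y. Searched on both strands, it occurred in 6 members and in 0.119% of 32851 windows. It stood in Hspa5, Hsp90b1, Pdia6 and Creld2 of the ATF6 arm and in Dnajc3 and Syvn1 of the XBP1 arm, and is in capitals here with 20 bases on each side. Where the element lies on the other strand, the capitals begin with CGTGG, and of the pair in Hsp90b1 the element nearer the start is shown.
Hspa5: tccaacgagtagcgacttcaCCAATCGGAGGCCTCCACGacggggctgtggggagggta
Hsp90b1: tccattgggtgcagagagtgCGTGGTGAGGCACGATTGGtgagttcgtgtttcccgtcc
Pdia6: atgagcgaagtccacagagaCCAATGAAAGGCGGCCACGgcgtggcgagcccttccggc
Creld2: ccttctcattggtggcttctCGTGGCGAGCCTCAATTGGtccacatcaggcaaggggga
Dnajc3: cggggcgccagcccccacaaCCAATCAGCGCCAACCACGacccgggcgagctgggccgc
Syvn1: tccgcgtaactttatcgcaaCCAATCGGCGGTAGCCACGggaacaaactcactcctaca

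These stretches are Hspa5 chr2:34772005-34772063, plus strand, Hsp90b1 chr10:86705513-86705571, minus strand, Pdia6 chr12:17266471-17266529, plus strand, Creld2 chr15:88819500-88819558, plus strand, Dnajc3 chr14:118937807-118937865, plus strand and Syvn1 chr19:6046512-6046570, plus strand. A second form of the element, ATTGG and CCACG separated by 1 base, occurred in Herpud1 and Dnajb11 and in 0.0365% of windows. The composite element bound by ATF4 with C/EBP proteins, searched as TGATG, any base and AA, occurred in Aars, Asns, Chac1, Trib3 and Herpud1 and in 3.97% of windows. The core of the XBP1 site, TGACG followed by TGG, was in 0.676% of windows and was not among the letters of the members' windows. The second form is in capitals in Herpud1 and the composite element in Chac1, Asns and Aars, again with 20 bases on each side except in Asns, which is cut at the start of the gene. In Chac1 and Aars the composite element lies on the other strand, so the capitals read TTGCATCA. Aars held a further match just after its start, which is not shown.
Herpud1: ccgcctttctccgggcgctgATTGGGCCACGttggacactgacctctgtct
Chac1: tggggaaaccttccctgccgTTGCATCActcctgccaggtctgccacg
Asns: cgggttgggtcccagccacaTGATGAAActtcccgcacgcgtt
Aars: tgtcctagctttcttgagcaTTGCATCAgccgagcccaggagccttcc

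They lie at Herpud1 chr8:94386357-94386407, plus strand, Chac1 chr2:119351029-119351076, plus strand, Asns chr6:7693210-7693252, minus strand and Aars chr8:111033710-111033757, plus strand. A match of letters is a description and does not show that a factor binds there. Of the 4 genes with the largest rises in mRNA, Chac1 is shown above, and Ppp1r15a, Eif2ak3 and Ern1 held none of the 4 motifs in their windows, of which the 250 bases before the start are shown, in lower case throughout.
Ppp1r15a: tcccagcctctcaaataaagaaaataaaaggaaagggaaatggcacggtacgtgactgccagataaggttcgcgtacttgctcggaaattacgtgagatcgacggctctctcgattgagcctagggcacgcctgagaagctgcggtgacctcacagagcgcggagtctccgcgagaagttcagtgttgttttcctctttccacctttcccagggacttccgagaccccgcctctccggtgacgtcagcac
Eif2ak3: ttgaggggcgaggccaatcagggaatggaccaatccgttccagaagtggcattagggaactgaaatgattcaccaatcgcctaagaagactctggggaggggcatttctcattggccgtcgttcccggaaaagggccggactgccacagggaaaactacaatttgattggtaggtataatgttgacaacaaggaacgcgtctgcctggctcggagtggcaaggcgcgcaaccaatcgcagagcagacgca
Ern1: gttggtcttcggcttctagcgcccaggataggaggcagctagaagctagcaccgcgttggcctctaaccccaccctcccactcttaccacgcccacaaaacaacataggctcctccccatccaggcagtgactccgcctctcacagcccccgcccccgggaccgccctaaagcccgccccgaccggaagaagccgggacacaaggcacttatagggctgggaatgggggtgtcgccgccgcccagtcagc

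Their positions are Ppp1r15a chr7:45526269-45526518, minus strand, Eif2ak3 chr6:70844265-70844514, plus strand and Ern1 chr11:106487797-106488046, minus strand. Absence of a motif says only that those letters are not in this window.

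With IL-33, 7 of the 36 genes rose and 9 fell at an adjusted p under 0.05, in the quasi-likelihood test of edgeR with p-values adjusted by Benjamini-Hochberg across the 14671 genes tested. Together these were 44.4% of the members, beside 27.5% of all genes tested. Rises made up 19.4% of the members and 13.6% of all genes, and falls 25.0% and 13.9%. The members were read at a median of 107 CPM by total counts and all genes tested at 18.3 CPM. No member passed the fold change of 1.5 besides, which 4.87% of all genes did. At that fold change no member passed at an unadjusted p under 0.05 in edgeR, DESeq2 or limma-voom either. The 95% interval of the log2 fold change lay inside this threshold for 34 members, and reached past it for Ppp1r15a and Cebpb. The groups did not overlap in 19 members, or 52.8%, beside 38.9% of all genes.

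By arm, the calls fell as follows. In the ATF4 arm 6 genes rose and 2 fell of 17, in the ATF6 arm 4 fell of 10 and none rose, and in the XBP1 arm Ern1 rose and 3 fell of 9. The median log2 fold change was 0.12 in the ATF4 arm, with a range from -0.21 to 0.53, beside -0.00 over all genes tested. It was -0.05 in the ATF6 arm, from -0.14 to 0.05, and -0.07 in the XBP1 arm, from -0.22 to 0.35. The difference between arms was not tested, since genes of an arm are not replicates.

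**Figure D1:**
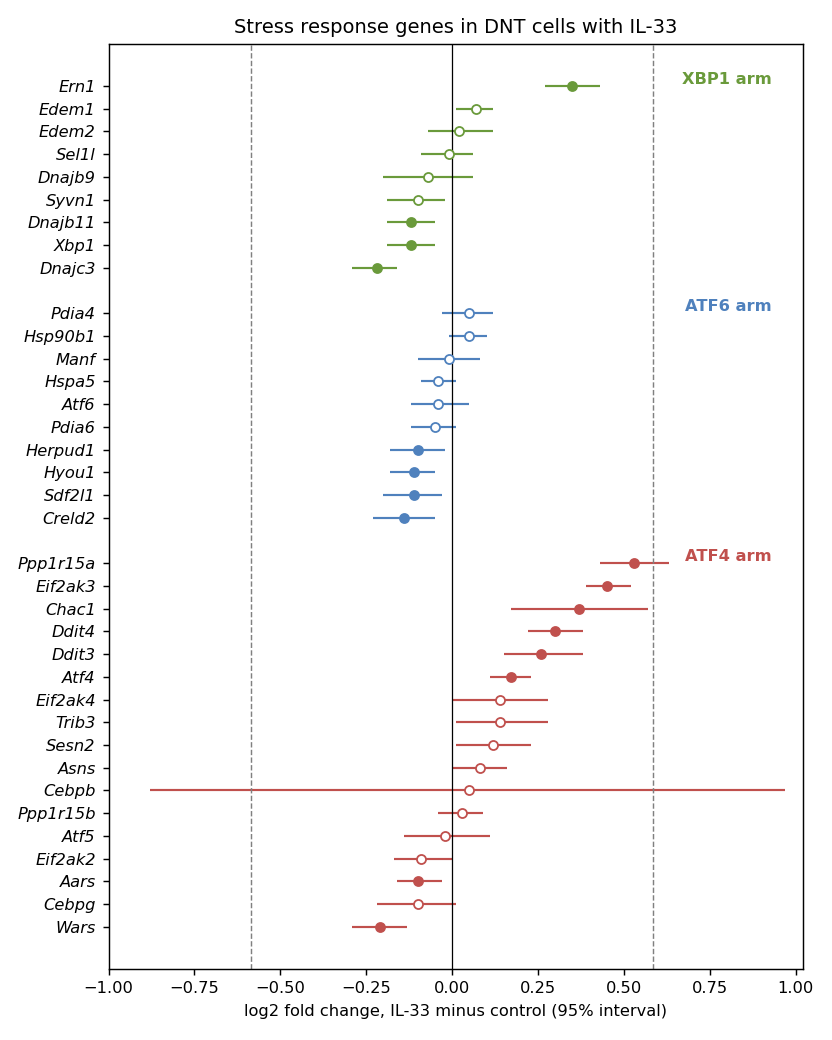
Log2 fold change of the 36 genes, IL-33 minus control, with 95% intervals from edgeR, ordered within the ATF4 (red), ATF6 (blue) and XBP1 (green) arms. Filled circles passed an adjusted p of 0.05 and dashed lines mark a fold change of 1.5 either way; Ppp1r15a at 0.53 and Eif2ak3 at 0.45 lie farthest to the right.

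Averaged over its 17 genes on the log2 CPM scale and set against the control mean, the ATF4 arm stood at -0.01, 0.03 and -0.02 in the control libraries and at 0.14, 0.12 and 0.13 with IL-33. The ATF6 arm stood at 0.02, -0.00 and -0.01 and at -0.05, -0.04 and -0.06. For the XBP1 arm these means were -0.01, -0.00 and 0.01 and -0.02, -0.02 and -0.03. In each arm the IL-33 libraries lay on a single side of the controls, with the widest gap in the ATF4 arm and a narrow one in the XBP1 arm.

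Of the sensors, Eif2ak3 and Ern1 rose and Atf6 did not pass the test. Eif2ak3, which encodes PERK (ENSMUSG00000031668), was read at 206, 208 and 212 CPM in the control libraries and at 281, 294 and 283 CPM with IL-33. All IL-33 libraries lay above all controls, by far more than either group spread (209 ± 2.97 and 286 ± 7.38 CPM, SD, n = 3), and the log2 fold change was 0.45 (SE 0.033, edgeR adjusted p = 8.8e-23). Ern1, which encodes IRE1α (ENSMUSG00000020715), had 100, 102 and 104 CPM without IL-33 and 126, 132 and 133 CPM with it. These groups did not overlap either, and Ern1 rose by 0.35 on the log2 scale (SE 0.040, edgeR adjusted p = 9.3e-13). Atf6 (ENSMUSG00000026663) was at 84.9, 83.8 and 81.2 CPM in controls and at 82.8, 79.9 and 80.6 CPM with IL-33. Its groups overlapped, with a log2 difference of -0.04 and a 95% interval from -0.12 to 0.05 (edgeR adjusted p = 0.561).

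The other eIF2α kinases showed no call. Eif2ak4, which encodes GCN2, had 30.1, 31.0 and 28.1 CPM in the controls and 33.6, 30.5 and 34.2 CPM with IL-33, groups that overlap, with a log2 difference of 0.14 (95% interval 0.00 to 0.28, edgeR adjusted p = 0.125). PKR's gene Eif2ak2 was at 84.9, 82.8 and 82.2 CPM and at 76.3, 79.6 and 79.3 CPM. Its IL-33 libraries all lay below the controls, but the log2 difference of -0.09 did not pass after adjustment in edgeR.

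The sensors were also compared as ratios within each library, where depth cancels out. The log2 ratio of Eif2ak3 to Eif2ak2 was 1.28, 1.33 and 1.37 in controls and 1.88, 1.89 and 1.83 with IL-33, a shift of 0.54. For Ern1 against Atf6 the ratio went from 0.24, 0.28 and 0.36 to 0.61, 0.72 and 0.72, a shift of 0.39. Neither pair of groups overlapped. These ratios belong to 7 that were chosen after the values had been seen, and the exact two-sided permutation test gave p = 0.1 for both, the smallest that 3 against 3 libraries allow (adjusted p = 0.117 over the 7).

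Of the transcription factors, Atf4 and Ddit3 rose and Xbp1 fell. Atf4 (ENSMUSG00000042406), the factor whose translation the eIF2α kinases favour, had 404, 399 and 391 CPM in controls and 448, 451 and 446 CPM with IL-33. The groups lay apart and Atf4 rose by 0.17 on the log2 scale (SE 0.028, edgeR adjusted p = 4.8e-07), a change of 12.6%. Ddit3, which encodes CHOP, a factor linked to cell death under lasting ER stress, went from 46.3, 42.5 and 45.3 CPM to 50.8, 55.1 and 55.3 CPM. Each IL-33 library was above each control, with a log2 fold change of 0.26 (SE 0.057, edgeR adjusted p = 9.8e-05). The ratio of Ddit3 to Atf4 within libraries moved by 0.09 on the log2 scale, with overlapping groups (exact permutation p = 0.3). With 3 against 3 libraries this test cannot give a p under 0.1, so it cannot decide whether their rises differ in size.

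Xbp1 (ENSMUSG00000020484), the substrate that IRE1α splices, was at 223, 214 and 210 CPM in the controls and at 198, 194 and 203 CPM with IL-33. All of its IL-33 libraries were lower, and Xbp1 fell by 0.12 on the log2 scale (SE 0.034, edgeR adjusted p = 0.00337). Ern1 and Xbp1 thus moved in opposite directions, and their log2 ratio went from -1.16, -1.07 and -1.02 to -0.64, -0.56 and -0.60 with no overlap. This shift of 0.47 again had the smallest possible exact permutation p of 0.1 (adjusted p = 0.117), for a pair chosen after the values had been seen. Spliced and unspliced Xbp1 are counted together here. Further factors of the ATF4 arm gave no call, with log2 differences of -0.10 for Cebpg, -0.02 for Atf5 and 0.05 for Cebpb. The last was read at 0.283 to 0.837 CPM, from 6 to 17 counts in a library, and its 95% interval ran from -0.88 to 0.97, so no change of moderate size was detectable.

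**Figure D2:**
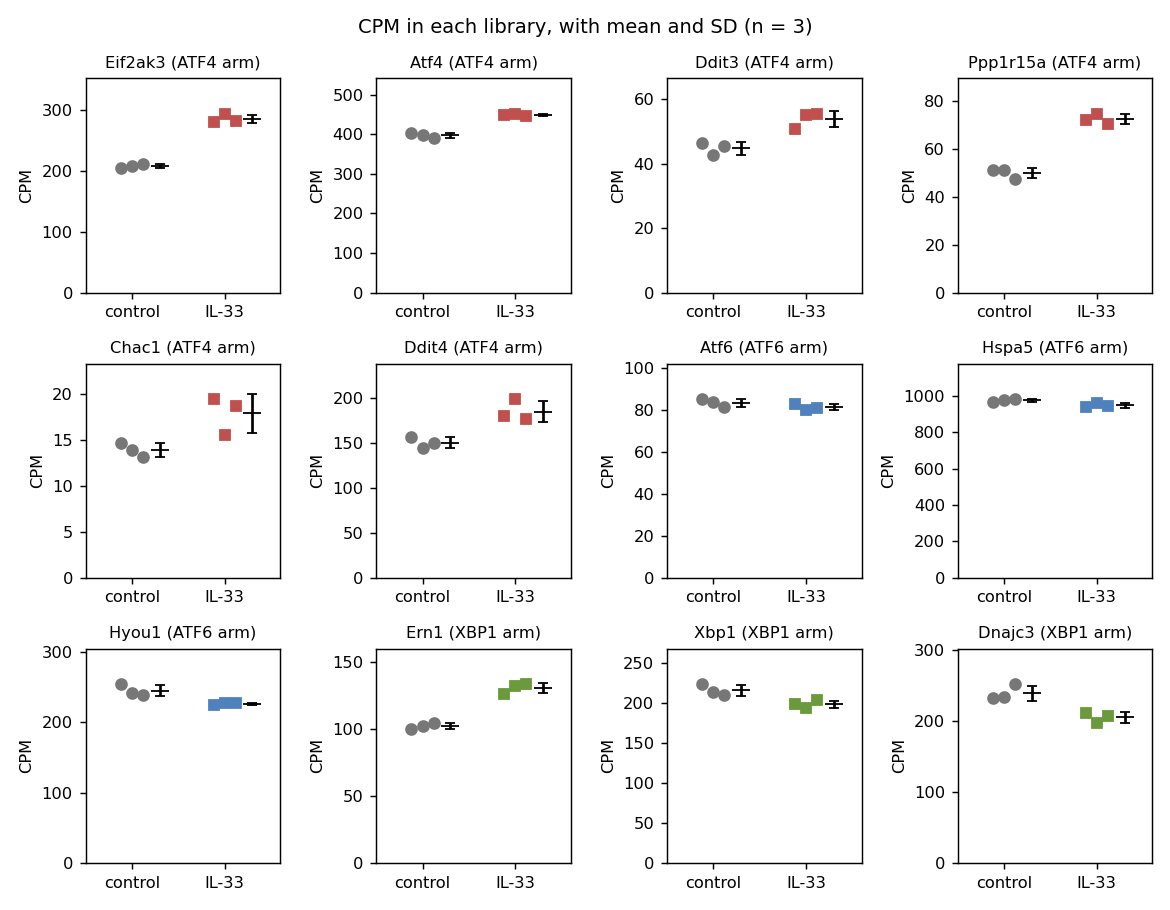
CPM of 12 genes in each library, with controls as grey circles, IL-33 libraries as coloured squares (red ATF4, blue ATF6, green XBP1 arm) and the mean with SD in black (n = 3); every axis starts at 0. The groups lie apart for Eif2ak3, Atf4, Ddit3, Ppp1r15a, Chac1, Ddit4, Ern1, Xbp1, Dnajc3, Hyou1 and Hspa5, and overlap for Atf6.

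Among the feedback genes, Ppp1r15a had the largest log2 fold change of all members. Its product GADD34 brings a phosphatase to eIF2α and so restores translation. Ppp1r15a (ENSMUSG00000040435) was at 51.3, 51.3 and 47.5 CPM in controls and at 72.2, 74.6 and 70.4 CPM with IL-33. The groups did not overlap, and Ppp1r15a rose by 0.53 on the log2 scale (95% interval 0.43 to 0.63, edgeR adjusted p = 4.0e-16), or 44.8%. Its paralogue Ppp1r15b, the constitutive partner of the same phosphatase, had means of 254 ± 6.81 and 258 ± 2.82 CPM (SD, n = 3) and a log2 difference of 0.03 (95% interval -0.04 to 0.09). Within libraries the ratio of Ppp1r15a to Ppp1r15b shifted by 0.51 without overlap (exact permutation p = 0.1, adjusted p = 0.117). This pair was chosen after the values had been seen, so the shift restates the fold changes of both genes and adds no support. Trib3, a pseudokinase that binds ATF4 and restrains it, did not pass, with a log2 difference of 0.14 and overlapping groups (edgeR adjusted p = 0.106).

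Chac1 and Ddit4, effectors downstream of ATF4, rose as well. Chac1, which breaks down glutathione, had 14.6, 13.9 and 13.1 CPM without IL-33 and 19.4, 15.5 and 18.7 CPM with it. Its IL-33 libraries spread more than the controls, yet the lowest of them was above the highest control (log2 fold change 0.37, SE 0.10, edgeR adjusted p = 0.00239). Ddit4, which encodes REDD1, an inhibitor of mTORC1, went from 157, 145 and 150 CPM to 180, 199 and 177 CPM. The groups again lay apart, and Ddit4 rose by 0.30 (SE 0.038, edgeR adjusted p = 4.2e-10). Sesn2, another restraint on mTORC1, had a log2 difference of 0.12 with overlapping groups (edgeR adjusted p = 0.106).

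None of the 3 amino acid genes of the ATF4 arm rose. Asns, which makes asparagine, was at 104 ± 5.38 and 110 ± 0.688 CPM (SD, n = 3), a log2 difference of 0.08 that did not pass (edgeR adjusted p = 0.153). The tRNA synthetase gene Wars fell from 144, 147 and 145 CPM to 126, 122 and 129 CPM, and Aars, another, from 304, 321 and 308 CPM to 296, 287 and 290 CPM. Both pairs of groups lay apart, with falls of 0.21 for Wars (edgeR adjusted p = 3.6e-06) and 0.10 for Aars (edgeR adjusted p = 0.0129) on the log2 scale. Of the 4 ATF4 arm genes with the composite element, Chac1 rose, Aars fell, and Asns and Trib3 did not pass. Among the 282 tested genes with this element in their window, 40 rose and 41 fell, with a median log2 fold change of -0.01. Of all 10068 tested genes with a window, 1521 rose and 1564 fell. The ratio of Chac1 to Asns, a pair chosen after the values had been seen, shifted by 0.28 (exact permutation p = 0.1, adjusted p = 0.117). Its values ran from -2.94 to -2.88 in controls and from -2.83 to -2.50 with IL-33.

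**Figure D3:**
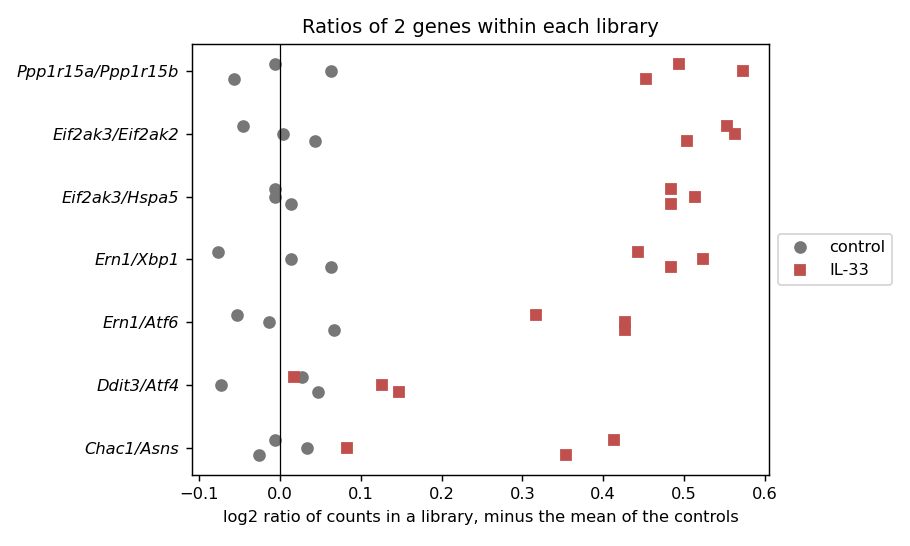
Log2 ratio of the counts of 2 genes in each library, minus the mean of the 3 controls, for 7 pairs chosen after the values had been seen. Grey circles are control and red squares IL-33 libraries. The groups lie apart in 6 pairs, by 0.28 to 0.54 on average, and overlap for Ddit3 against Atf4.

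In the ATF6 arm, the genes that passed the test fell by small amounts. Hspa5, which encodes the ER chaperone BiP that holds the sensors inactive, was at 975 ± 8.38 CPM in controls and 949 ± 13.4 CPM with IL-33 (SD, n = 3). Its libraries did not overlap (966, 978 and 982 against 938, 964 and 946 CPM), but the log2 difference of -0.04, with a 95% interval from -0.09 to 0.01, did not pass (edgeR adjusted p = 0.241). Eif2ak3 rose against Hspa5, a pair chosen after the values had been seen, by 0.49 on the log2 scale within libraries (exact permutation p = 0.1, adjusted p = 0.117). Hsp90b1, the ER form of HSP90, had 401, 386 and 393 CPM and 411, 413 and 393 CPM, with a log2 difference of 0.05 in the other direction (95% interval -0.01 to 0.10).

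Creld2, an ER protein that is also secreted, went from 84.8, 78.3 and 82.0 CPM to 74.0, 72.4 and 76.0 CPM. All IL-33 libraries were lower, and Creld2 fell by 0.14 on the log2 scale (SE 0.044, edgeR adjusted p = 0.00915). Hyou1, a large chaperone that serves BiP as nucleotide exchange factor, had 254, 242 and 239 CPM in controls and 225, 227 and 228 CPM with IL-33. It fell by 0.11 without overlap (SE 0.033, edgeR adjusted p = 0.00540). Both calls rest in part on Control 1: without that library the edgeR adjusted p was 0.0764 for Creld2 and 0.0649 for Hyou1, and without IL-33 library 2 it was 0.0641 for Creld2.

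Sdf2l1, a partner of ER chaperones, was read at 94.2, 91.7 and 94.5 CPM and at 85.0, 92.1 and 82.8 CPM with IL-33, so that IL-33 library 2 fell among the controls. Herpud1, which takes part in degradation of ER proteins, had 110, 117 and 108 CPM and 107, 100 and 105 CPM, groups that lay close together without overlap. Their falls of 0.11 and 0.10 on the log2 scale passed narrowly (edgeR adjusted p = 0.0417 and 0.0493) and were lost in DESeq2 (adjusted p = 0.130 and 0.122) and limma-voom (adjusted p = 0.0617 and 0.0727). With these tests 2 genes of the arm had fallen in place of 4, and without Control 1 a single gene. The disulfide isomerase gene Pdia6 had 281, 272 and 281 CPM and 265, 272 and 267 CPM, with a log2 difference of -0.05, and Pdia4, of the same family, 0.05. Manf, a secreted factor released under ER stress, was at 77.7 ± 4.22 and 77.2 ± 1.85 CPM (SD, n = 3).

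Beneath Ern1 in the XBP1 arm, 2 of 3 co-chaperones fell and none of the 4 degradation genes passed the test. Dnajc3, a co-chaperone also known as p58IPK that restrains eIF2α kinases, went from 233, 234 and 252 CPM to 212, 197 and 207 CPM. The groups lay apart, and Dnajc3 had the largest fall of the members and fell by 0.22 on the log2 scale (SE 0.034, edgeR adjusted p = 5.7e-08). Dnajb11, a co-chaperone of BiP, was at 177, 186 and 187 CPM and at 169, 164 and 174 CPM. Its IL-33 libraries were all lower (log2 fold change -0.12, SE 0.036, edgeR adjusted p = 0.00708), although without IL-33 library 2 the adjusted p was 0.0767. Dnajb9, a further co-chaperone of BiP, had a log2 difference of -0.07 with overlapping groups.

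The ubiquitin ligase gene Syvn1, which encodes HRD1, had 81.7, 76.4 and 77.7 CPM in controls and 76.2, 74.1 and 69.0 CPM with IL-33. Its groups lay close together without overlap, and the log2 difference of -0.10 did not pass (edgeR adjusted p = 0.0708). Edem1, which passes misfolded glycoproteins to degradation, lay at 470, 450 and 454 CPM and at 472, 481 and 487 CPM, with a log2 difference of 0.07 that did not pass either (edgeR adjusted p = 0.0608). Sel1l, the partner of HRD1, and Edem2 had differences of -0.01 and 0.02. Of the 6 members with the ER stress response element, Creld2 and Dnajc3 fell and Hspa5, Hsp90b1, Pdia6 and Syvn1 did not pass. Among the 18 tested genes with this element in their window, members included, 2 rose and 3 fell, with a median log2 fold change of -0.04. Of all 10068 tested genes with a window 1521 rose and 1564 fell, a similar share.

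Levels of different genes were compared per length of exons. In control libraries the level of Hspa5 was 231 CPM per kb, that of Atf4 169 and that of Hsp90b1 97.5, followed by Ddit4 at 85.8 and Sdf2l1 at 84.4. Xbp1 stood at 66.4 CPM per kb, Eif2ak3 at 34.7 and Ern1 at 12.5, with Atf6 at 9.02 and Eif2ak4 at 3.99. Ppp1r15a, at 17.0, and Chac1, at 8.47, were among the less abundant members for all the size of their fold changes, while the lowest level was that of Cebpb at 0.380. Ddit4 and Sdf2l1 in this order do not differ beyond the spread of Ddit4 between libraries.

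**Figure D4:**
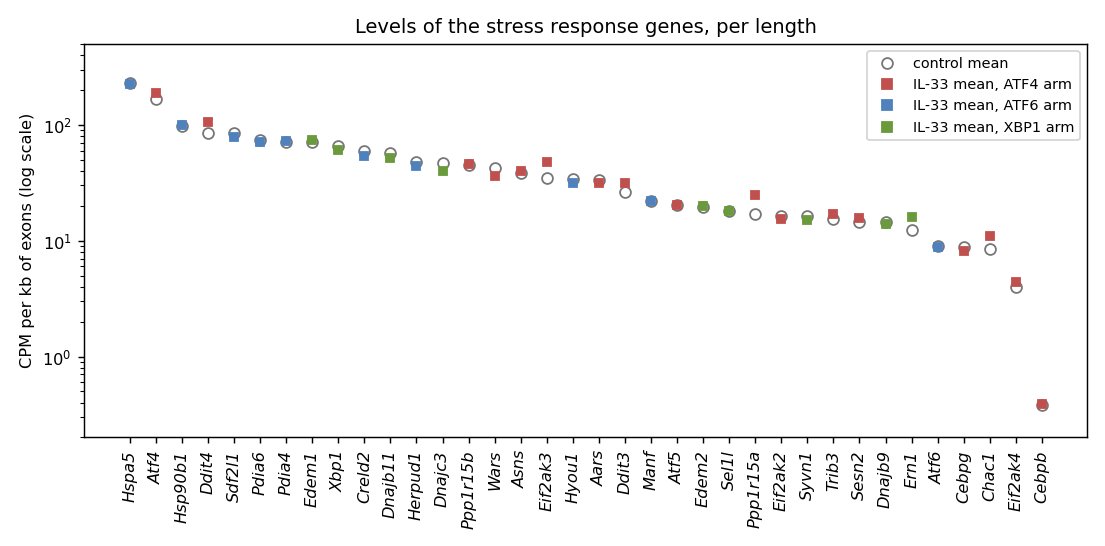
Mean level of each of the 36 genes in CPM per kb of exons on a log axis, ordered by the control mean, with open circles for controls and coloured squares for IL-33 (n = 3 each). The span runs from 231 CPM per kb for Hspa5 to 0.380 for Cebpb in controls, and the IL-33 means lie close to the control means on this scale.

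Further genes of the same pathways gave calls in both directions, none past the fold change of 1.5. Beside the 27.5% of all genes tested, the called share was 23.1% around eIF2, 22.7% of other ATF4 targets, 44.4% of other tRNA synthetases, 26.1% of translocon genes, 22.2% of other chaperones, 23.5% of other degradation genes and 14.3% of other sensor genes. Of 13 genes around eIF2 itself, 2 rose and 1 fell (median log2 fold change 0.05). These were the eIF2β gene Eif2s2, from 165 ± 2.80 to 187 ± 1.42 CPM (SD, n = 3; log2 fold change 0.18), Eif2b2, of the exchange factor eIF2B, at 0.20, and Gcn1l1, whose product activates GCN2, at -0.16. Of 22 other ATF4 targets tested, 2 rose and 3 fell (median 0.03). Eif4ebp1, a repressor of cap-dependent translation, rose by 0.23, while the amino acid transporters Slc7a1 and Slc7a5 fell by 0.23 and 0.15. Among 18 other cytosolic tRNA synthetases 6 rose and 2 fell (median 0.01), led by Vars at -0.20, Sars at 0.18 and Lars at -0.18.

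On the side of the ER, 5 of 23 genes of the translocon and signal peptide processing rose and 1 fell (median 0.04). Srp72, a subunit of the signal recognition particle, went from 257 ± 5.59 to 326 ± 10.7 CPM (SD, n = 3), a log2 fold change of 0.34 with an edgeR adjusted p of 8.5e-17, and the channel genes Sec61b and Sec61a1 rose by 0.16 and 0.12. Of 18 other chaperones and disulfide enzymes 2 rose and 2 fell (median 0.01). The protein disulfide isomerase gene P4hb rose by 0.20 and Ero1l, the oxidase that recharges it, by 0.46, from 923 ± 52.9 to 1270 ± 50.8 CPM, while the lectin chaperone gene Calr fell by 0.11. In 17 other genes of ER-associated degradation 4 rose and none fell (median 0.03), with Os9 at 0.24, Selenok at 0.17 and Selenos at 0.12. Of 7 other genes of the sensors and their processing, Traf2, which binds IRE1α, fell by 0.23 and none rose (median -0.04). Mbtps1 and Rtcb, next by adjusted p, had log2 differences of -0.07 and 0.06 and did not pass.

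**Figure D5:**
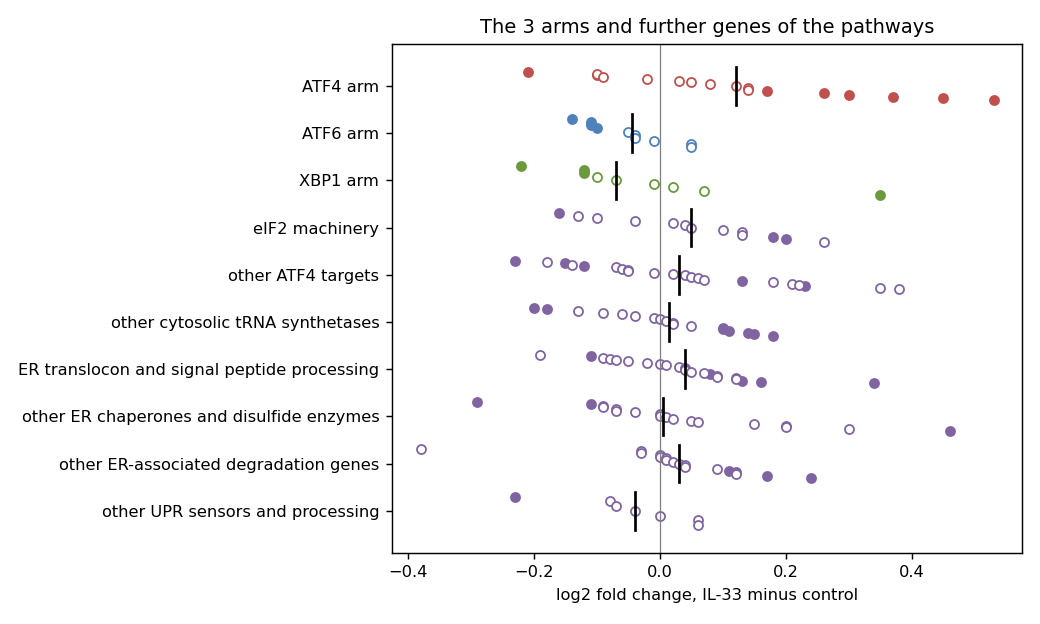
Log2 fold change, IL-33 minus control, of each tested gene of the 3 arms (red, blue, green) and of 7 further lists (purple), with filled circles for an edgeR adjusted p under 0.05 and a black bar at each list's median. All medians lie between -0.07 and 0.12.

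Whether the counting used strand is not given in the sources used here, so reads of genes that overlap on opposite strands may not be told apart. Eif2ak3 shares 485 bases, 8% of its exons, with the antisense gene Gm43292, which had 26 to 76 counts in a library and so a small part of the counts of Eif2ak3. Cebpb shares 20.7% of its exons with Tmem189, whose 907 to 1355 counts far exceed its own. The overlap of Ddit3 with Mars is 68 bases, and Mars had a log2 difference of 0.02. On the same strand, Aars shares 1326 bases, 14.3% of its exons, with Exosc6, which is not among the genes counted. Reads of Exosc6 may therefore be part of the counts of Aars, which was not tested.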

How the data were processed

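The authors deposited counts of reads per gene, without normalization, for 6 libraries of DNT cells, and also 1 column of signal, named as in DESeq2's output for the average of scaled counts. Recomputing it gave values within 2.1e-07% for each gene, and it was not used further. The submitters' processing notes name Bowtie 0.12.2 and mm8. How reads were counted, and whether by strand, is not given in the sources used here. TruSeq is the kit in the labels and NEBNext Ultra in the methods of the study. Samples were grouped by their labels. Of 26128 identifiers, 26072 had a symbol and exon length in GENCODE M21.

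Genes were kept by filterByExpr (minimum count 10, minimum total count 15), which left 14671, scaled by TMM and tested between groups in edgeR (quasi-likelihood, robust, two-sided, no covariates) with Benjamini-Hochberg adjustment over all of them. The adjusted p of 0.05 and the log2 fold change of 0.585 are the thresholds of the study. R 4.3.3, edgeR 4.0.16, limma 3.58.1 and DESeq2 1.42.0 were used, and the fit was tested on simulated data. The 36 members, the further lists and the tests were chosen with earlier results of these data known. Values in every library are given for the sensors, eIF2α kinases and main factors (Eif2ak3, Eif2ak4, Eif2ak2, Atf4, Atf6, Ern1 and Xbp1) and for the 5 members of each arm with the largest absolute log2 fold change. Of the further lists, the 3 genes with the smallest adjusted p are named. Values in every library for Wars, Aars, Hspa5, Hsp90b1 and Edem1, and the gene pairs, were added after the values had been seen. Alternatives were other tests, scalings and filters, a replicate block, a test against the fold threshold and each library left out in turn. Detection limits on counts cover counting error only. The intervals of log2 fold changes come from the edgeR fit, which includes the spread between libraries. Some marker genes are not reported here.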

Additional observations from a re-analysis of the deposited data

How the results depend on the processing

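Over 502 values of single members under 14 alternatives, 473 kept their side of the adjusted p of 0.05, 23 lost a call, 6 gained one. The log2 fold change kept its sign in all alternatives for 32 members, the 16 called ones included, and changed sign for Cebpb (-0.27 to 0.41), Manf (-0.04 to 0.04), Atf5 (-0.06 to 0.02) and Sel1l (-0.04 to 0.02), which were not called. The 10 members called in edgeR and in every alternative were Atf4, Chac1, Ddit3, Ddit4, Eif2ak3, Ern1 and Ppp1r15a, which rose, and Dnajc3, Wars and Xbp1, which fell. The share of all genes tested that kept a call in every alternative was not counted, so this number has no background beside it. Sdf2l1 kept its call in 5 of 14 alternatives and Herpud1 in 6. Without Control 1, Creld2 and Hyou1 lost their calls and Trib3 (adjusted p = 0.0228), Sesn2 (0.0253), Asns (0.0264) and Edem1 (0.0226) gained one in edgeR, which makes 9 rises in the ATF4 arm. Aars lost its call without Control 2 (0.122) or IL-33 library 2 (0.0765). Syvn1 gained one with total counts as scaling (0.0300) and Edem1 with upper quartile scaling (0.0274). Over all genes, rises numbered 1781 without Control 1, beside 1999 in all libraries. Members past the adjusted p numbered 12 to 17 with a library left out, beside 16 in all libraries. Over all genes, those past it numbered 3366 to 3664, beside 4036. Of the median log2 fold changes with a library left out, that of the ATF4 arm ran from 0.09 to 0.15, of the ATF6 arm from -0.06 to -0.04 and of the XBP1 arm from -0.10 to -0.03. Genes past both thresholds numbered 113 in edgeR's test against the fold threshold, beside 714, since that test asks that the change itself exceed the threshold. Calls that were higher made up 53.7% of all calls with upper quartile scaling and 43.0% with total counts, beside 49.5% with TMM. The strict filter removed Cebpb.

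Samples with the same replicate number deviated together with correlations of 0.09, 0.04 and 0.10, so the numbers were not taken to pair the samples. At 2 decimals no library had a higher signed correlation with another number than with its own, although Control 2 tied at 0.04 with IL-33 library 1. That is a weak hint from the data and not from the design. The correlation largest in size was negative, at -0.14 between Control 3 and IL-33 library 1. With the replicate block in the fit, 14 members passed, beside 16, and 3798 genes, beside 4036.

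Among the members the smallest change called was that of Aars, which fell by 6.43%. Protein levels, eIF2α phosphorylation, ATF6 cleavage and Xbp1 splicing are not measured by these counts.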
